A study of Drosophila melanogaster with 6 samples.

Results

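The genes described here are 30 autophagy and lysosome genes of Drosophila melanogaster, chosen by name from a list of the autophagy machinery and of resident lysosomal proteins. All 30 were found among the 15796 genes of the count table, 27 by their current symbol and 3 by a synonym (Vps34 as Pi3K59F, CtsB1 as CtsB and CtsD as cathD), and all 30 had enough counts to be among the 10705 genes tested. RNA was sequenced from fat bodies dissected from larvae late in the third instar, labelled as strain w1118. The 3 AKH overexpression libraries came from larvae of genotype UAS-AKH/+; R4-Gal4/+, in which the Gal4 driver R4, active in the fat body, switches on the gene of adipokinetic hormone. The 3 control libraries came from R4-Gal4/+ larvae, so both groups carried the driver, and the control genotype as given names no UAS insertion. The labels do not state the sex of the larvae, the number pooled or whether each library had its own pool, so the p-values reflect no more than how far these libraries lie apart, part of which can be technical. The question is how hormone made in the fat body itself changes that organ's transcripts, here those of its degradation machinery.

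Autophagy encloses cytoplasm in a double membrane, the autophagosome, which then fuses with lysosomes, where acid hydrolases break the content down. The Atg1 kinase complex starts the process, the Vps34 lipid kinase complex marks the membrane with phosphatidylinositol 3-phosphate (PI3P), and ubiquitin-like conjugation attaches Atg8 to it. The larval fat body is a classic site of autophagy in the fly, which starvation induces during larval growth and the steroid ecdysone at the end of larval life. Adipokinetic hormone is the fly counterpart of glucagon and mobilizes lipid and sugar from the fat body.

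Library totals were 29803513 to 33150911 counts. Akh was at 2088, 1635 and 1839 CPM (counts relative to the library total, as scaled by edgeR's TMM factors) in AKH replicates 1 to 3, against 2.26, 2.45 and 1.82 CPM in control replicates 1 to 3, in accord with the labels, and the hormone's receptor gene AkhR was at 41.1, 37.2 and 41.0 CPM, against 128, 126 and 173 CPM. The 7 fat body markers, larval serum and fat body proteins, had a summed level of 371612 to 445424 CPM in AKH libraries and 340013 to 480786 CPM in controls. Marker transcripts of other tissues were present at levels that differed between libraries. The summed level of 7 salivary gland glue markers was 19560 to 30135 CPM in AKH libraries and 24468 to 28792 CPM in controls. The summed level of 10 cuticle and epidermis markers was 1235 to 2016 CPM with AKH and 1841 to 1899 CPM in controls. The summed level of 19 male germline markers was 54.5, 72.0 and 13.9 CPM in AKH replicates 1 to 3, against 16.2, 68.9 and 17.4 CPM in control replicates 1 to 3. The summed level of 14 midgut markers was 4.11, 768 and 11.6 CPM in the AKH libraries, against 3116, 4499 and 1607 CPM in the controls. The summed level of 11 muscle markers was 72.7, 86.4 and 83.3 CPM with AKH, against 124, 103 and 131 CPM in controls. Every tested marker of muscle (11, median log2 fold change -0.63) and of midgut (12, median -3.45) had a negative fold change. The AKH libraries lay below all controls in 9 and 8 of them, a state shared by 13.5% of all tested genes. The 8 haemocyte markers went both ways, 3 with a positive and 5 with a negative fold change. The AKH libraries lay below all controls in 3 of these 8 and above in 1, where 13.5% and 10.8% of all tested genes did. The summed level of the 8 was 363 to 420 CPM with AKH and 389 to 463 CPM in controls. By edgeR's test 2 markers of muscle, 1 of midgut and 1 of haemocytes fell, where 1.91% of all tested genes fell, and none of the markers of fat body, cuticle, male germline and salivary gland glue was called in either direction. Control replicate 2 was also the highest library in most tested ecdysone response genes. The nuclear receptor gene Hr4, picked after its values were seen, was at 2.22, 3.63 and 1.53 CPM in AKH replicates 1 to 3, against 6.71, 62.6 and 1.86 CPM in control replicates 1 to 3. Other genes of that list differed: EcR (71.0 CPM) and ftz-f1 (7.49 CPM) were lowest in control replicate 2, and Eip93F and Eip71CD were not highest there. In such bulk samples, fewer cells of a type and less RNA per cell cannot be told apart.

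The members covered a wide range of levels, which are compared here per gene length, as the RPKM (reads relative to gene length and library total) that the authors deposited. The 6 lysosomal members had mean levels of 22.9 to 689 RPKM in AKH libraries and 21.0 to 606 RPKM in controls, with medians of 111 and 114 RPKM. The 24 autophagy members had mean levels of 1.36 to 227 RPKM with AKH and 1.11 to 189.6 RPKM in controls, with medians of 8.36 and 7.96 RPKM. Lysosomal genes thus stood mostly above autophagy genes in both groups, with Atg8a as the exception among the 4 members that exceeded 100 RPKM in both.

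CtsD, the aspartic protease cathepsin D, was the most abundant member, at 781, 694 and 592 RPKM in AKH replicates 1 to 3, against 527, 728 and 562 RPKM in control replicates 1 to 3. It made up 37.8% to 41.7% of the summed RPKM of the 30 genes in AKH libraries and 35.7% to 38.8% in controls. The groups overlapped, with the second highest value in control replicate 2. Npc2a, a soluble sterol-binding protein of the lysosome, was next at 236, 232 and 222 RPKM with AKH, against 199, 233 and 208 RPKM in controls. Atg8a, the ubiquitin-like protein that coats autophagosomes, was at 231, 237 and 213 RPKM with AKH, against 180.5, 196 and 192 RPKM in controls. Lamp1, a glycoprotein of the lysosomal membrane, was at 122, 136 and 115.5 RPKM with AKH, against 101, 120 and 108 RPKM in controls. Of these 4 genes, only Atg8a had every AKH library above every control on this scale, and it too overlapped on the TMM-scaled CPM scale (283, 266 and 272 CPM with AKH, against 211, 219 and 266 CPM in controls). Npc2a and Atg8a, neighbours in this order, had overlapping levels in AKH libraries (230.3 ± 7.03 and 227 ± 12.3 RPKM, SD, n = 3 each), while in controls all Npc2a values lay above all Atg8a values (213 ± 17.4 and 189.6 ± 8.13 RPKM).

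**Figure D1:**
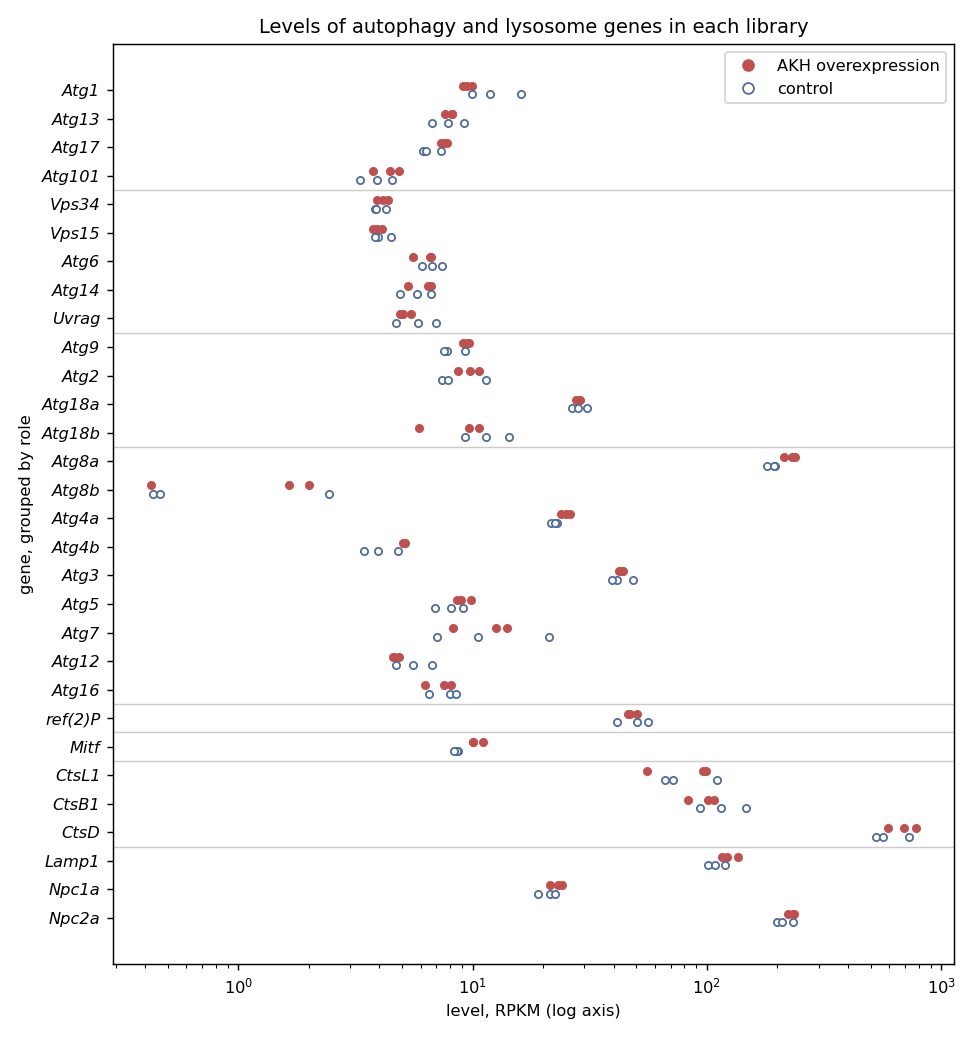
Level of each of the 30 genes in RPKM on a log axis, 1 point per library, with AKH overexpression filled and above, and control open and below, grouped by role with thin lines between roles. Most lysosomal genes and Atg8a lie at the right, and Atg8b spreads most between libraries of a group.

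None of the 30 genes was called between AKH overexpression and control by edgeR's quasi-likelihood test, which called 3.77% of all tested genes at a Benjamini-Hochberg adjusted p under 0.05. The smallest adjusted p among them was 0.130, that of Atg4b, and 4 had an unadjusted p under 0.05 (3 higher, 1 lower), a rate of 18% among all tested genes. Fold changes were small in either direction, from -0.43 (Atg18b) to 0.33 (Atg4b) on the log2 scale, with 18 positive and 12 negative, and a median of 0.06 beside 0.02 over all tested genes. On the scale of TMM-scaled CPM the groups did not overlap in 8 of the 30 genes, 4 with AKH above and 4 with AKH below, a share of 26.7% that is close to the 24.3% of all tested genes. On the deposited RPKM, scaled by library totals, the groups did not overlap in 6 genes (Atg4b, Mitf, Atg8a, Atg17 and Atg4a with AKH above, Atg1 with AKH below), 20% beside 20.6% of tested genes. Atg4b, Mitf and Atg1 were thus apart on both scales, and Atg5, Atg9, Atg12, Atg18b and CtsB1 on the TMM scale alone. The 95% interval of the log2 fold change lay between -1 and 1, that is within 2-fold either way, for 29 genes, and within 1.5-fold for 25. Atg8b was the exception to the first, with an interval of -1.68 to 2.30. DESeq2 called 1 member, Atg1, lower with AKH (log2 fold change -0.41, adjusted p = 0.0401), where its adjusted p was 0.121 to 0.411 under the other settings tried on all 6 libraries or with 1 left out. DESeq2 also called more genes than edgeR over all genes, as the closing section gives. limma-voom called 0 members, with 4 at an unadjusted p under 0.05.

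**Figure D2:**
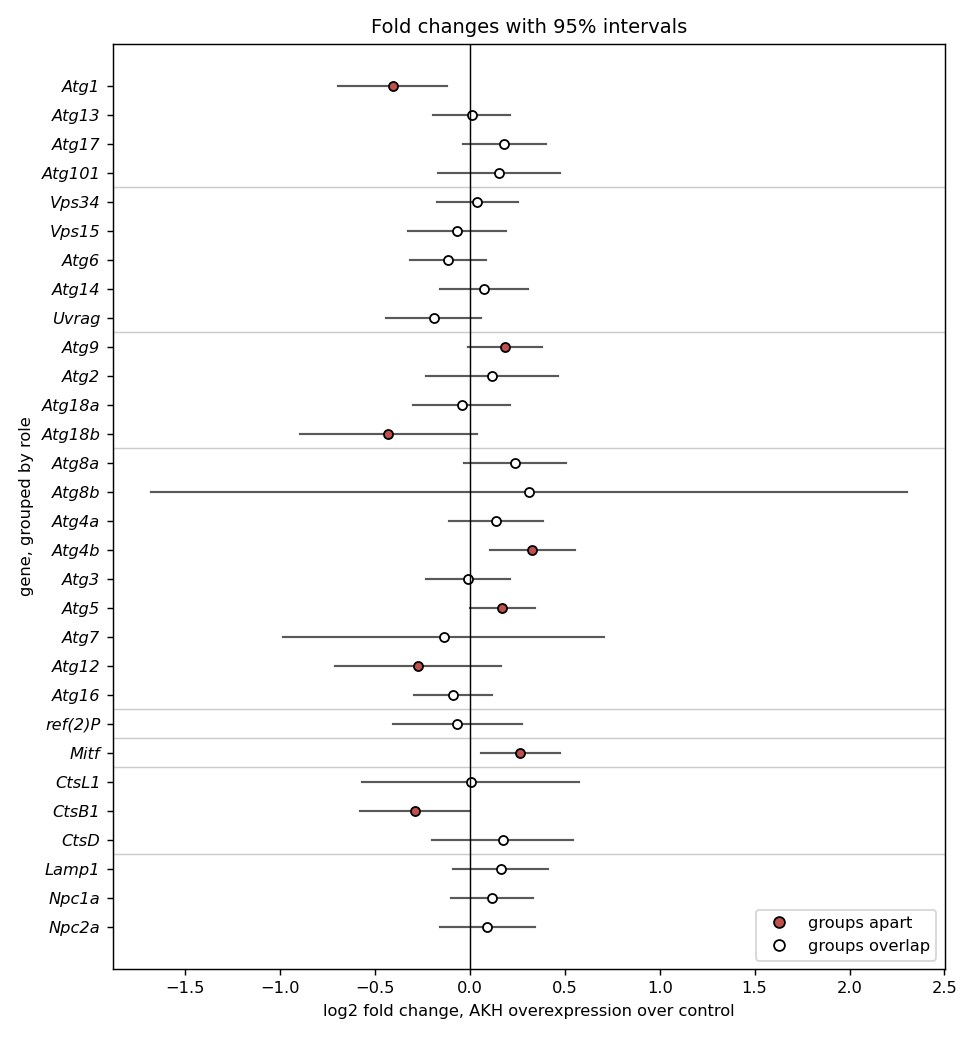
Log2 fold change of each gene, AKH overexpression over control, with its 95% interval from the edgeR fit; filled points mark the 8 genes whose groups did not overlap. All intervals but that of Atg8b (-1.68 to 2.30) lie between -1 and 1.

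In the kinase complex that starts autophagy, Atg1 itself was lower in every AKH library, without passing the test. Atg1 (FBgn0260945), the serine/threonine kinase, was at 36.1, 34.6 and 36.2 CPM in AKH replicates 1 to 3, against 42.9, 56.0 and 42.8 CPM in control replicates 1 to 3. All AKH libraries lay below all controls, a state shared by 13.5% of all tested genes, and control replicate 2 stood above the rest. Its log2 fold change was -0.41 (SE 0.12, interval -0.69 to -0.12, adjusted p = 0.143), and -0.28 without control replicate 2, the library with the highest Hr4. The part of ecdysone response in this difference was not tested. Its partners differed less: the log2 fold change was 0.18 for Atg17, the scaffold related to mammalian FIP200, 0.15 for Atg101 and 0.01 for Atg13, each with groups that overlapped on the TMM scale, Atg17 not on RPKM. The Atg1 complex therefore held 0 genes that rose or fell of 4, where 3.77% of all tested genes were called.

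The 5 genes of the Vps34 complexes stayed within a narrow range, with log2 fold changes of -0.19 to 0.07 and overlap between groups in each. Vps34, the lipid kinase that makes PI3P, averaged 13.2 ± 0.247 CPM with AKH and 12.8 ± 1.18 CPM in controls (SD, n = 3 each). Vps15, its regulatory subunit, averaged 13.1 ± 1.43 and 13.7 ± 0.934 CPM in the same order. Atg6, the fly Beclin 1, averaged 10.7 ± 0.652 CPM with AKH and 11.6 ± 0.449 CPM in controls. The 2 subunits that direct the kinase to different membranes pointed in opposite directions without passing the test, Atg14, which serves autophagosomes, at 0.07 (SE 0.10) and Uvrag, known for endosomal trafficking, at -0.19 (SE 0.10); the difference between them was not tested.

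Among 4 genes for Atg9 vesicles and PI3P effectors, Atg9 and Atg18b had groups that did not overlap on the TMM scale, in opposite directions. Groups were apart on that scale in 24.3% of all tested genes, and on RPKM both overlapped. Atg9, the membrane protein whose vesicles seed the autophagosome, was at 26.9, 25.2 and 27.2 CPM with AKH, against 21.2, 24.2 and 24.4 CPM in controls (log2 fold change 0.19, SE 0.08, adjusted p = 0.302). Atg18b, a PI3P-binding propeller protein, was at 22.0, 22.1 and 14.0 CPM with AKH, against 24.8, 29.7 and 23.9 CPM in controls (-0.43, SE 0.19, adjusted p = 0.315). The most negative fold change of the 30 genes thus included 1 low library, AKH replicate 3. Without that library the log2 fold change of Atg18b was -0.25. Its paralogue Atg18a, with 28.1 ± 0.550 RPKM with AKH and 28.6 ± 2.18 RPKM in controls, was more abundant per length than Atg18b, with 8.74 ± 2.48 and 11.7 ± 2.51 RPKM (SD, n = 3 each), and its fold change was -0.04. Atg2, which transfers lipid to the growing membrane, was at 0.12 (SE 0.14).

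Of the 9 genes of ubiquitin-like conjugation, Atg4b and Atg5 lay higher in every AKH library on the TMM scale and Atg12 lower, none passing the test. Groups were apart on that scale in 24.3% of all tested genes, and on RPKM Atg5 and Atg12 overlapped. Atg4b, a cysteine protease that trims Atg8, was at 13.7, 12.7 and 14.2 CPM with AKH, against 10.1, 11.8 and 10.5 CPM in controls (log2 fold change 0.33, SE 0.09, adjusted p = 0.130). Its relative Atg4a was more abundant per length, at 24.9 ± 1.06 RPKM with AKH and 22.3 ± 0.688 RPKM in controls, against 5.10 ± 0.0391 and 4.05 ± 0.681 RPKM for Atg4b (SD, n = 3 each), and had a log2 fold change of 0.14, with groups that overlapped on the TMM scale and not on RPKM. Exons of both overlap those of a gene on the other strand (CG4629 for Atg4a and Tmtc4 for Atg4b), and the sources used here do not say whether counting used the strand, so reads could be shared.

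The conjugate of Atg12 and Atg5, bound to Atg16, acts as the ligase for Atg8. Atg5 was at 12.8 CPM in each AKH replicate, against 11.0, 11.8 and 11.2 CPM in controls (log2 fold change 0.17, SE 0.07, adjusted p = 0.271). Atg12, which overlaps the respiratory gene ND-SGDH on the other strand, was at 2.19, 1.99 and 2.40 CPM with AKH, against 3.03, 2.42 and 2.52 CPM in controls (-0.27, SE 0.18, adjusted p = 0.503). The products of these genes work as partners in 1 complex. Their fold changes had opposite signs, but the interval of Atg12 (-0.71 to 0.16) spanned 0, and the contrast was not tested. Atg16 and the Atg8 transferase Atg3 overlapped between groups, at -0.09 and -0.01. Atg8a, the main Atg8 gene here, was at 0.24 (SE 0.11, adjusted p = 0.333).

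Mitf, a transcription factor of the family of mammalian TFEB, which drives lysosomal and autophagy genes, was higher in every AKH library. It was at 34.9, 35.2 and 36.3 CPM with AKH, against 28.6, 27.2 and 32.8 CPM in controls (log2 fold change 0.27, SE 0.09, adjusted p = 0.178), a difference that did not pass the test. The Mitf groups were apart on both scales. So were those of 24.3% of all tested genes on the TMM scale and of 20.6% on RPKM. The lysosomal members did not pass the test either, and among them CtsB1 alone had a negative fold change. A link between Mitf and these genes was not tested. CtsB1, a cysteine cathepsin, was at 149, 144 and 128 CPM with AKH, against 162, 197 and 155 CPM in controls (-0.29, SE 0.12, adjusted p = 0.281). All its AKH libraries thus lay below all controls on the TMM scale. On RPKM its groups overlapped, at 101, 107 and 83.0 RPKM with AKH, against 115, 146 and 93.0 RPKM in controls. CtsD was at 0.17 (SE 0.15) and CtsL1 at 0.00 (SE 0.24). Lamp1, Npc1a, the membrane partner of Npc2a in sterol export, and Npc2a were at 0.16, 0.12 and 0.09, with overlapping groups in each on both scales. ref(2)P, the fly p62 that binds ubiquitinated cargo and Atg8, averaged 110.3 ± 2.42 CPM with AKH and 115 ± 21.0 CPM in controls (SD, n = 3 each). Its transcript level says nothing of the protein, which autophagy itself removes.

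**Figure D3:**
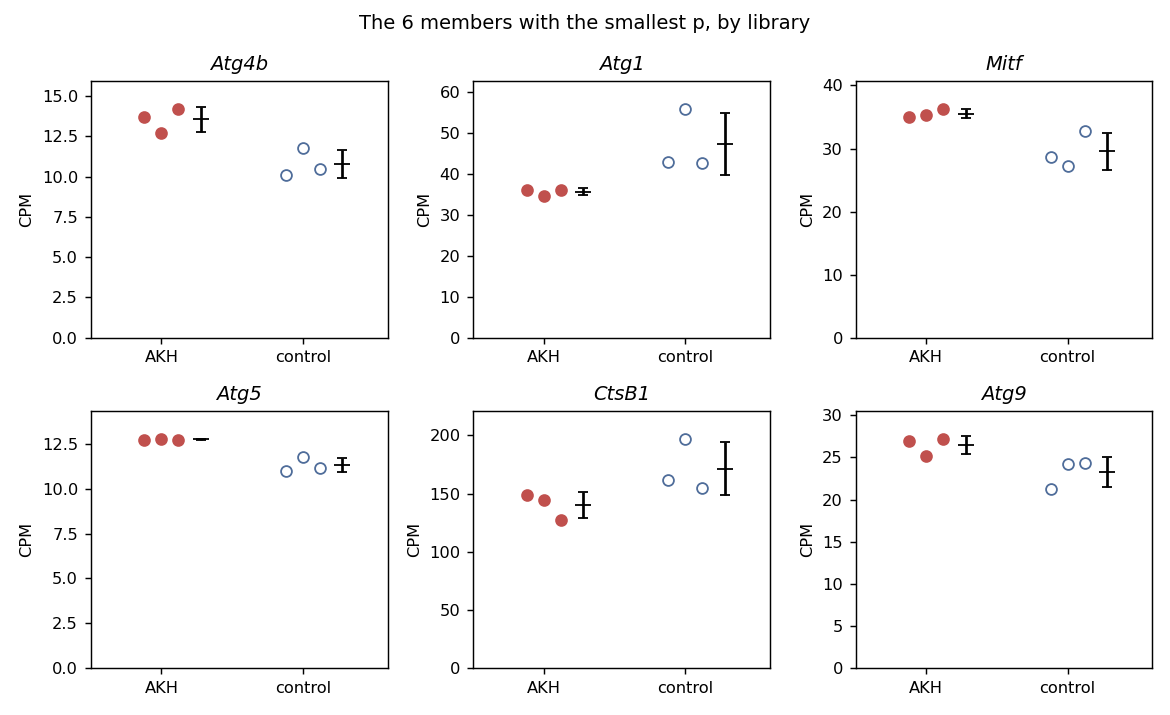
CPM in each library of the 6 genes with the smallest p (AKH overexpression filled, control open), with the mean and SD of 3 libraries beside them. In each panel the AKH points lie wholly above or wholly below the control points, which goes with the choice of genes by p. Groups were apart on this scale in 24.3% of all tested genes, and on RPKM those of Atg5, CtsB1 and Atg9 overlapped. The adjusted p of the 6 genes was 0.130 to 0.302.

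In 18 of the 30 genes the larger of the SDs of log2 CPM within a group exceeded the size of the log2 fold change between the groups. The SD of log2 CPM over 3 libraries had a median over the 30 genes of 0.10 with AKH and 0.15 in controls, beside 0.15 and 0.18 over all tested genes. In 26 genes the highest AKH library was under 1.5 times the lowest, and in 28 genes the highest control was. These counts, and that of 18 genes above, were not made over all tested genes. Atg8b, Atg7, CtsL1 and Atg18b had an SD over 0.3 with AKH, and of these Atg8b and Atg7 also in controls.

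Atg8b, the second Atg8 gene, is known in the fly chiefly from the male germline. It had 34, 38 and 8 counts in AKH replicates 1 to 3, or 1.03, 1.15 and 0.278 CPM, against 8, 45 and 9 counts in control replicates 1 to 3, or 0.258, 1.39 and 0.328 CPM. The highest library was 4.13 times the lowest with AKH and 5.40 times in controls, above 90.3% and 92.7% of tested genes in SD. The 3 libraries high in Atg8b, AKH replicates 1 and 2 and control replicate 2, were the 3 with the most male germline marker transcripts (54.5, 72.0 and 68.9 CPM, against 13.9 to 17.4 CPM in the others). The part of germline RNA in the Atg8b level was not tested. Per length Atg8b was at 0.713%, 0.843% and 0.199% of the Atg8a level in AKH replicates 1 to 3, against 0.239%, 1.24% and 0.240% in control replicates 1 to 3, so nearly all Atg8 transcript in these libraries was Atg8a.

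Atg7, the activating enzyme that both conjugation pathways need, was at 27.1, 27.8 and 18.5 CPM in AKH replicates 1 to 3, against 21.7, 41.8 and 17.2 CPM in control replicates 1 to 3. Its highest control was 2.43 times its lowest. The ecdysone-induced transporter gene E23 was at 16.8, 20.1 and 6.47 CPM in AKH replicates 1 to 3, against 22.5, 52.6 and 9.38 CPM in control replicates 1 to 3, so that control replicate 2 was the highest in both genes. AKH replicate 3 and control replicate 3 were the lowest pair in both Atg7 and E23. The fold change of Atg7 was -0.14 (SE 0.35), 0.31 without control replicate 2 and 0.03 without AKH replicate 3, so its sign rested on single libraries; the part of developmental stage or germline RNA was not tested. CtsL1, the cathepsin L gene, was at 146, 130.3 and 85.5 CPM with AKH, against 101, 149 and 110.4 CPM in controls, with AKH replicate 3 the lowest and control replicate 2 the highest of the 6. An annotated gene on its own strand, CG42806, overlaps 13.7% of its exon length, so some of its reads could belong there.

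Control replicate 1 had the lowest level of the 3 controls in 21 of the 30 genes, where 28.5% of all tested genes were lowest in that library. With scaling by library totals alone this number was 11, so the low position of that library among the controls depended on the scaling (23 with RLE factors, 16 with upper quartile scaling). The highest control was replicate 2 in 15 genes, replicate 3 in 14 and replicate 1 in 1, beside 35.9%, 34.5% and 29.5% of all tested genes. Among the AKH libraries, replicate 2 was the lowest in 16 of the 30 genes, beside 36.8% of all tested genes. With library totals alone it was the lowest in 3, so that position depended on the scaling too.

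**Figure D4:**
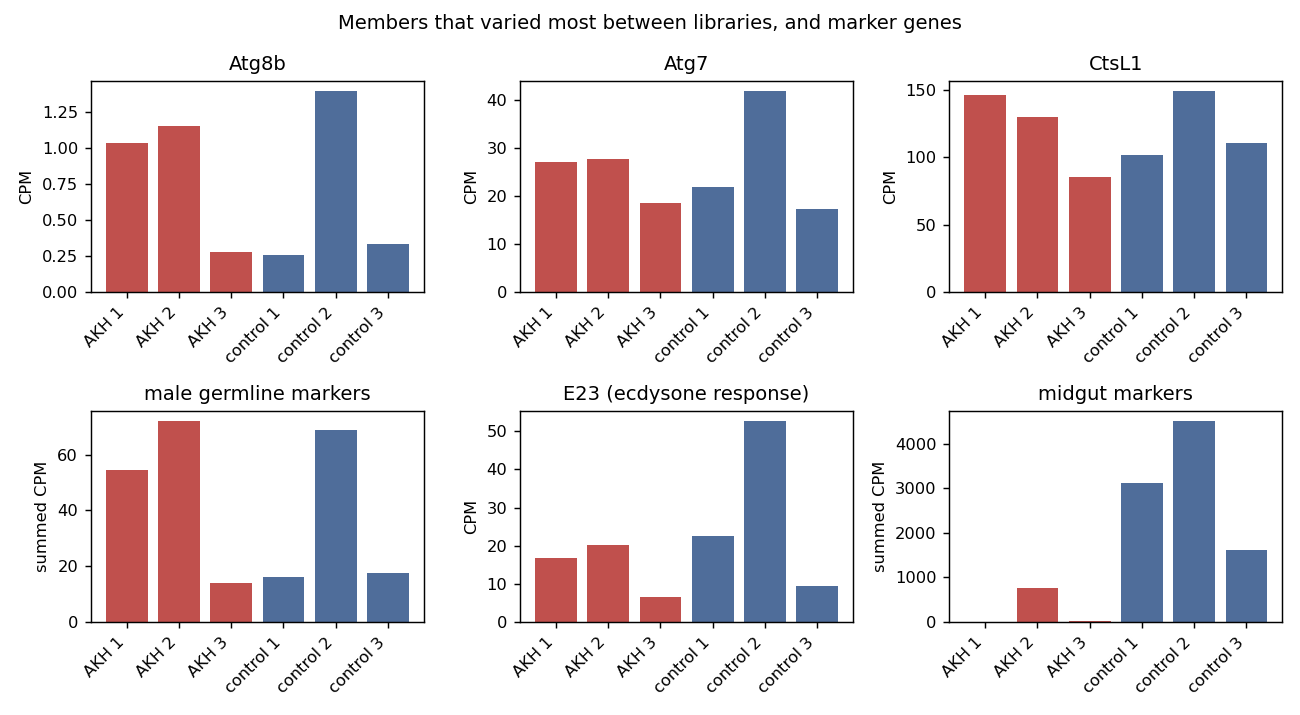
Bars give CPM in each library for Atg8b, Atg7 and CtsL1 (upper row), and for summed male germline markers, the ecdysone response gene E23 and summed midgut markers (lower row), AKH libraries left of controls. Atg8b is high in the same 3 libraries as the germline markers, and control 2 is the highest in Atg8b, Atg7, CtsL1, E23 and the midgut sum.

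The members were set beside 148 other genes of the pathway found in the table, in 7 lists, of which 136 were tested. Of all tested genes, 3.77% were called and 18% had an unadjusted p under 0.05. In 6 of the lists 0 genes rose or fell, a count that lists of this size can give at that share. These were the lists of other autophagy genes (16 tested, median log2 fold change -0.03, 3 with an unadjusted p under 0.05), fusion with the lysosome (17, 0.04, 2), V-ATPase subunits (23, 0.22, 3), ESCRT subunits (15, 0.03, 2), nutrient and energy regulators of Atg1 (18, 0.04, 3) and ecdysone response genes (16, -0.18, 3). DESeq2 called 11 genes over all 7 lists, and it called more genes than edgeR over all genes too, as the closing section gives. limma-voom called 5 in the lists, and its count over all genes is not given here.

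The most abundant gene of each of these lists did not pass the test. BNIP3, a mitophagy receptor, averaged 219 ± 54.6 CPM with AKH and 182 ± 21.2 CPM in controls, and Rab7, the small GTPase of late endosomes and lysosomes, 199 ± 9.67 and 184 ± 17.0 CPM in that order. The ESCRT subunit gene shrb averaged 75.9 ± 1.55 CPM with AKH and 74.9 ± 6.35 CPM in controls, and Eip71CD, a methionine sulfoxide reductase induced by ecdysone, 139.5 ± 28.5 and 99.1 ± 15.3 CPM. Thor, the translation repressor 4E-BP, a target of the TOR kinase, was at 629, 586 and 351 CPM in AKH replicates 1 to 3, against 276, 398 and 364 CPM in control replicates 1 to 3. Its groups overlapped through AKH replicate 3 (log2 fold change 0.59, SE 0.25, adjusted p = 0.287).

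The V-ATPase is the proton pump that acidifies lysosomes. Of its 23 tested subunit genes, 20 (87%) had a positive log2 fold change, none past the test, beside 52.4% of all tested genes. Of these, 6 were rare subunit genes (Vha68-3, Vha14-2, Vha16-3, Vha16-5, Vha100-3 and VhaAC39-2, at 1 to 83 counts in any library) that were highest in AKH replicates 1 and 2 and control replicate 2, the libraries rich in male germline markers, whose part was not tested. Of the other 17 subunit genes, 14 had a positive fold change. The most abundant, Vha16-1, was at 781, 798 and 854 CPM with AKH, against 631, 637 and 822 CPM in controls (0.22, SE 0.13, adjusted p = 0.456). The summed level of all 29 subunit genes found was 2287, 2323 and 2484 CPM with AKH, against 1839, 1847 and 2378 CPM in controls. Control replicate 3 thus lay within the range of the AKH libraries, and control replicates 1 and 2 below it. On the deposited RPKM, which use library totals, the sum was 1104, 1212 and 1130 RPKM with AKH, against 932, 976 and 1005 RPKM in controls, so the overlap depended on the scaling.

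In the last list, of other lysosomal enzymes and transporters, 1 of 31 tested genes rose and 5 fell, where 1.87% and 1.91% of all tested genes did. The gene that rose was Ect3, which encodes a beta-galactosidase family enzyme, at 78.0, 91.0 and 87.8 CPM with AKH, against 35.4, 34.7 and 43.3 CPM in controls (log2 fold change 1.18, SE 0.11, adjusted p = 0.0044). Of the genes that fell, Gba1b, a glucocerebrosidase gene, was at 10.1, 12.5 and 9.53 CPM with AKH, against 39.6, 42.4 and 56.1 CPM in controls (-2.10, SE 0.17, adjusted p = 0.0026). The groups were far apart in both genes, and both calls held whichever library was left out (adjusted p up to 0.0253 for Gba1b and 0.0392 for Ect3). Sgsh, the heparan sulfate sulfamidase, fell to 25.2 ± 1.08 CPM with AKH, against 41.0 ± 3.64 CPM in controls (-0.70, SE 0.09, adjusted p = 0.0109), a call lost without AKH replicate 1 or 2 (adjusted p = 0.0631 and 0.0513).

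The other 3 genes that fell were Hexo2, LManIII and LManV, named because the count is small and chosen after their values were seen. Hexo2, a beta-hexosaminidase gene, fell to 21.3 ± 1.19 CPM with AKH, against 28.6 ± 0.526 CPM in controls (log2 fold change -0.42, adjusted p = 0.0266), a call lost whichever library was left out (adjusted p = 0.0561 to 0.120) and with library totals as the scale. LManIII, of the lysosomal alpha-mannosidase family, had 2, 0 and 1 counts with AKH, against 49, 63 and 37 counts in controls (adjusted p = 0.0131), the count of 0 allowing up to 0.0907 CPM. LManV had 0, 1 and 7 counts with AKH, against 209, 139 and 55 counts in controls (adjusted p = 0.0386). The LManIII call was lost without AKH replicate 1 or 3 or control replicate 1 (adjusted p up to 0.0552), and the LManV call without AKH replicate 1 or 2 or control replicate 1 or 2 (up to 0.147) and with limma-voom (0.284); reads of these related genes could be split between them. Midgut marker transcripts were also fewer with AKH: 2, 5 and 3 of the 14 had 0 counts in AKH replicates 1 to 3, against 1 in each control. AKH replicate 2, with 768 CPM of midgut markers, had 0 counts of LManIII and 1 of LManV. The part of midgut RNA in these decreases was not tested.

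**Figure D5:**
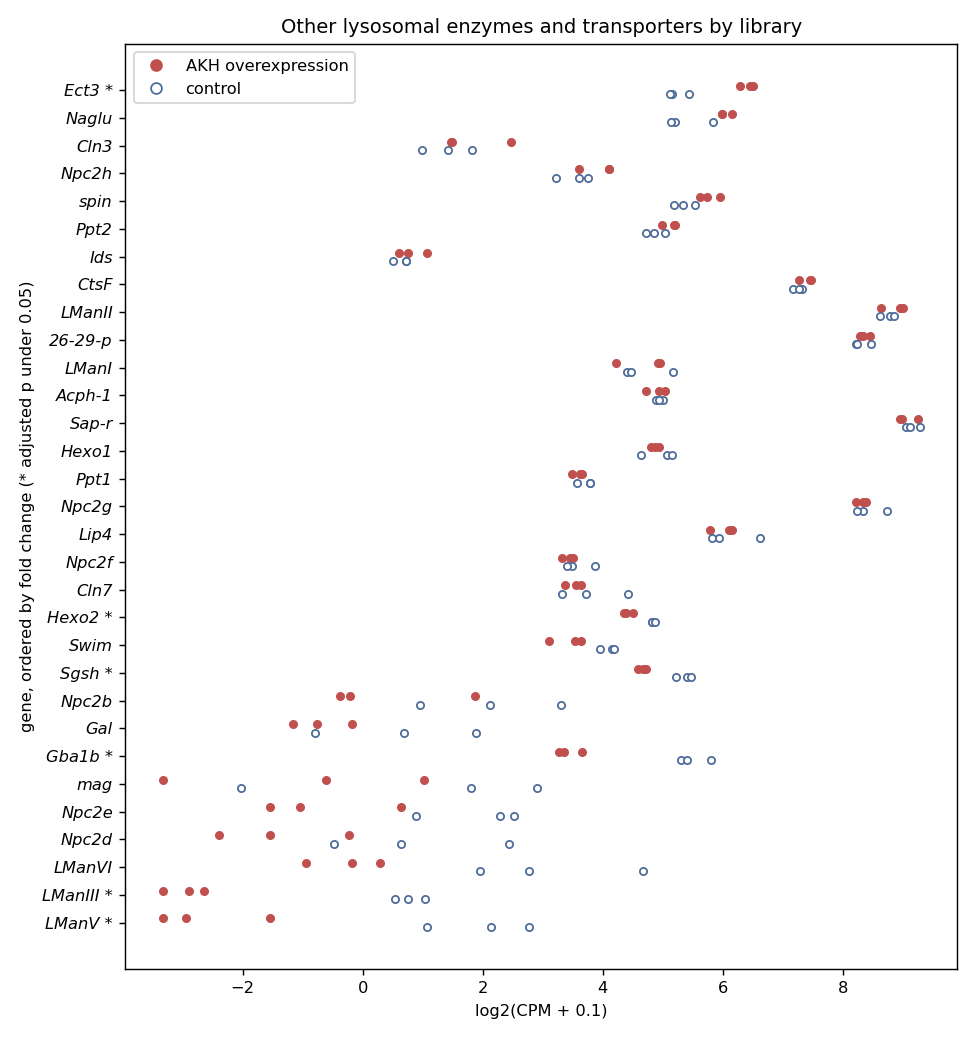
Level of the 31 tested lysosomal enzymes and transporters in each library, as log2(CPM + 0.1), ordered from the largest increase to the largest decrease, with a star at the 6 genes with an adjusted p under 0.05. AKH overexpression (filled) lies above control (open) in Ect3 and below it in Gba1b, Sgsh, Hexo2, LManIII and LManV.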

How the data were processed

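Trizol RNA was made into TruSeq libraries, per the labels' protocols. The authors deposited raw read counts per gene and RPKM. The tools listed are DESeq 1.10.1, HTSeq 0.5.4p3, TopHat2 2.0.9 and Bowtie2 2.0.6, and the build BDGP5, per the submitters' processing notes; the sources used here do not give their roles, the annotation or the use of strand. The deposited RPKM were counts over library total and 1 length per gene, checked in 7684 genes of over 50 counts (largest relative spread 1.04e-07). The annotation used for gene names and overlaps is of a later build, so no coordinates are given; exons of 9 members overlapped another gene.

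All 6 libraries entered 1 fit of the counts by edgeR 4.0.16, run in R 4.3.3 (default expression filter, TMM scaling, quasi-likelihood test of group, no covariate), with Benjamini-Hochberg adjustment over 10705 genes. Intervals of fold changes come from that fit. CPM use TMM-scaled totals, and SDs are of log2 CPM with a prior count of 2. Alternatives used DESeq2 1.42.0, limma 3.58.1, other scalings, filters and thresholds, RPKM, a replicate block and leaving out libraries. The fit was tested on simulated data. Limits from counts of 0 (3 counts) cover counting error only. Of 165 pathway and 77 marker names, 148 and 76 were found; the rest were not analysed here. Values in every library are given for the 6 members with the smallest p, the 4 most abundant, and those whose groups did not overlap, and from each pathway list up to 3 called genes, or the most abundant if none. Hr4, E23 and the members of large spread were added after their values were seen. The members and lists were chosen with earlier results of these data known. Libraries of a group differed beyond sampling noise (chi-square per degree of freedom 39.3 to 94.3), so none was merged. Figures were drawn with matplotlib 3.10.9.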

Additional observations from a re-analysis of the deposited data

How the results depend on the processing

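The count of 0 members called held under 18 of 19 alternative settings, the exception being DESeq2 (1, Atg1); signs of uncalled fold changes near 0 did not. Of 570 member values under these settings, 27 changed sign. The thresholds of 0.1 and 0.01 reused the main fit, so their values could not change sign, and at 0.01 no call could be gained. CtsL1, at 0.00, was at -0.0041 with RLE factors, -0.0030 with DESeq2, -0.0150 with limma-voom, -0.0024 without an expression filter and -0.0132 with the replicate block, and Atg3 at 0.0046 and 0.0048 with limma on log2(RPKM + 1) and log2(RPKM + 0.1). Leaving out 1 library gave -0.055 to 0.042 for Atg13, -0.029 to 0.11 for Vps34, -0.15 to 0.0056 for Vps15, -0.028 to 0.24 for Atg2, -0.13 to 0.048 for Atg18a, -0.070 to 1.46 for Atg8b, -0.076 to 0.050 for Atg3, -0.38 to 0.31 for Atg7, -0.22 to 0.052 for ref(2)P and -0.16 to 0.20 for CtsL1. Over all genes, 404 calls became 988 with DESeq2, 721 at an adjusted p under 0.1 and 132 under 0.01, and 144 to 479 without 1 library, with 144, 261 and 182 without AKH replicates 1, 2 and 3 and 189 without control replicate 1. The 6 calls of the 7 pathway lists became 11, 10 and 2 under the same first 3 settings and 2 to 8 without 1 library, with 2 and 3 without AKH replicates 1 and 2 and 3 without control replicate 1. After the data were seen, fits were added within the libraries that held less and more male germline RNA. Each had a lone library in 1 group that is assumed to vary like the others. Control replicate 2, alone in the second, was also the highest library in most tested ecdysone response genes, so neither is a comparison matched for germline RNA. With AKH replicate 3 and control replicates 1 and 3, 2 genes were called over all, 0 in the pathway lists and 0 members, and Vps15 (0.081), Atg14 (-0.0038), Atg18a (0.0063), Atg3 (0.11) and CtsL1 (-0.31) changed sign. With AKH replicates 1 and 2 and control replicate 2, 620, 15 and 0 were called, and Atg13 (-0.12), Atg101 (-0.051), Atg2 (-0.066), Atg8b (-0.32) and CtsL1 (-0.078) changed sign. The number of members lowest in control replicate 1 was 11 with library totals. Correlations of deviations from the group mean between libraries of the same number were -0.369, 0.600 and 0.502. With so few libraries they cannot decide whether the numbers pair the libraries, which the labels do not state. With the replicate block 430 genes, 6 pathway genes and 0 members were called. At these depths Atg8b, with 8 to 45 counts a library, was the least precise member.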
